A study of Mus musculus with 9 samples.

Results

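The peptide and amino acid transporters of the absorbing cell were examined in 9 arrays of mouse jejunum. A list of 9 genes was taken (Slc15a1, Slc1a1, Slc1a5, Slc3a1, Slc3a2, Slc7a7, Slc7a8, Slc7a9 and Slc6a19), and every probe whose gene symbol was one of them was read, whatever its signal. A probe was found for 8 of the 9 genes, 1 probe each, among 15674 gene symbols on the array. Slc6a19, the sodium-dependent carrier of neutral amino acids at the brush border, had no probe by symbol or by RefSeq accession and was not measured.

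The mice were male OF1 animals, an outbred stock, 7 weeks old and of generation 3 on their feed. Feed groups B, K and G held 3 mice apiece, with 1 array per mouse. The letters are the only description of the feeds that the labels give; a custom maize-based diet is named in the methods, but not which letter it carries. RNA came from a 2 cm piece of whole jejunal wall, so epithelium, muscle and immune cells were measured together, and fewer cells of a type cannot be told apart from less RNA per cell. Per the methods, the mice went without food, though not without water, for 3 hours of the light cycle before sampling. Outbred animals differ in genotype as well as in feed, and the hour of sampling was neither recorded nor randomised between the groups.

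Dietary protein reaches the blood through paired carriers on both faces of the enterocyte. At the brush border, PEPT1 (Slc15a1) takes up di- and tripeptides with protons, EAAT3 (Slc1a1) takes up anionic amino acids with sodium, and the heavy chain rBAT (Slc3a1) escorts the light chain b0,+AT (Slc7a9), which exchanges cystine and basic amino acids for neutral ones. At the basolateral face, the heavy chain 4F2hc (Slc3a2) escorts the light chains y+LAT1 (Slc7a7), which exports basic amino acids, and LAT2 (Slc7a8), which exchanges neutral ones. ASCT2 (Slc1a5) exchanges neutral amino acids such as glutamine and is known from dividing cells as well as from epithelium.

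The transporters were clearly present in every sample. All 8 measured genes were detected on 9 of 9 arrays, detection meaning a signal at least 3 times its noise, with ratios between 4.4 and 100.2. Each spot's own error ran from 0.998% to 4.63% of the signal for the heavy chains, Slc7a7 and Slc7a9, and reached 9.2% for Slc15a1 and 11.6% for both Slc1a1 and Slc1a5. The widest spot error was 22.7%, for Slc7a8 in feed B mouse 8. Signals are given below as log2 of the quantile-normalised intensity, a scale on which a difference of 1 is a doubling. Probes differ in their efficiency, so the levels of different genes were not set against each other.

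The label of the tissue was compared with marker genes before the feeds were. The 6 measured enterocyte markers of a list of 10 (Fabp1, Fabp2, Apoa4, Apoa1, Mttp and Ada) were detected on all 9 arrays, and their summed signal lay between 20.91 and 21.73 in every mouse. Fabp6, the bile acid binding protein of the ileum, varied far more. Its log2 signal was 15.81 in feed B mouse 7, 17.84 in feed B mouse 10 and 19.51 in feed G mouse 11, and between 4.67 and 12.19 in the other 6 mice. In the same 3 mice the ileal bile acid importer Slc10a2 was at 9.46, 12.05 and 12.66, against 6.53 to 9.73 elsewhere. Fgf15, the other measured gene of the ileal list, was detected on 1 array only. It was at 6.7, 5.11 and 10.49 in these mice, against 4.96 to 6.4 elsewhere, so feed B mouse 10 lay within that range. Fabp1, the fatty acid binding protein of the more proximal gut, was at 17.85, 17.50 and 16.40 in the 3 mice, lower than in any of the other 6. The other 2 measured genes of the proximal list did not follow Fabp1. Slc40a1, an iron exporter, was at 10.17, 10.11 and 10.43 there, above the 9.39 to 10.02 of the other mice, and Gata4, a transcription factor, was at 8.87, 9.96 and 9.32, within their 8.57 to 10.46. These 3 mice, 2 on feed B and 1 on feed G, are called the mice with Fabp6 above 15, a limit set after the values were seen. The feed differences, the spread and the correlated pair are given with and without them.

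Of the other lists, the summed signal of 2 crypt markers ranged over the feeds from 10.60 to 11.84, of 4 goblet cell markers from 18.03 to 18.20 and of 6 smooth muscle markers from 15.99 to 16.75. The sum of 3 Paneth cell markers was lowest in feed G mouse 11 (14.54), and lay at 16.39 to 17.61 otherwise. Lymphocyte markers (7 genes) summed to between 10.25 and 12.65 and plasma cell markers (2 genes) to between 11.25 and 14.51. None of 3 exocrine pancreas genes with a probe was detected on 3 or more arrays. The 7 clock output genes summed to 12.49 to 13.46 on feed B, 13.64 to 14.28 on feed K and 13.84 to 14.59 on feed G. The sum on feed B thus lay below the other feeds without overlap, but the brightest genes weigh most in it. By feed mean, Dbp, Tef, Hlf and Per2 were lowest on feed B. Arntl (9.77, 9.01 and 7.66 on feeds B, K and G) and Nfil3 (10.07, 9.46 and 8.925) were highest on feed B. Nr1d1, at 10.87, 11.63 and 10.75, was lowest on feed G. The part of cell makeup, segment or hour in the feed comparisons below was not tested.

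**Figure D1:**
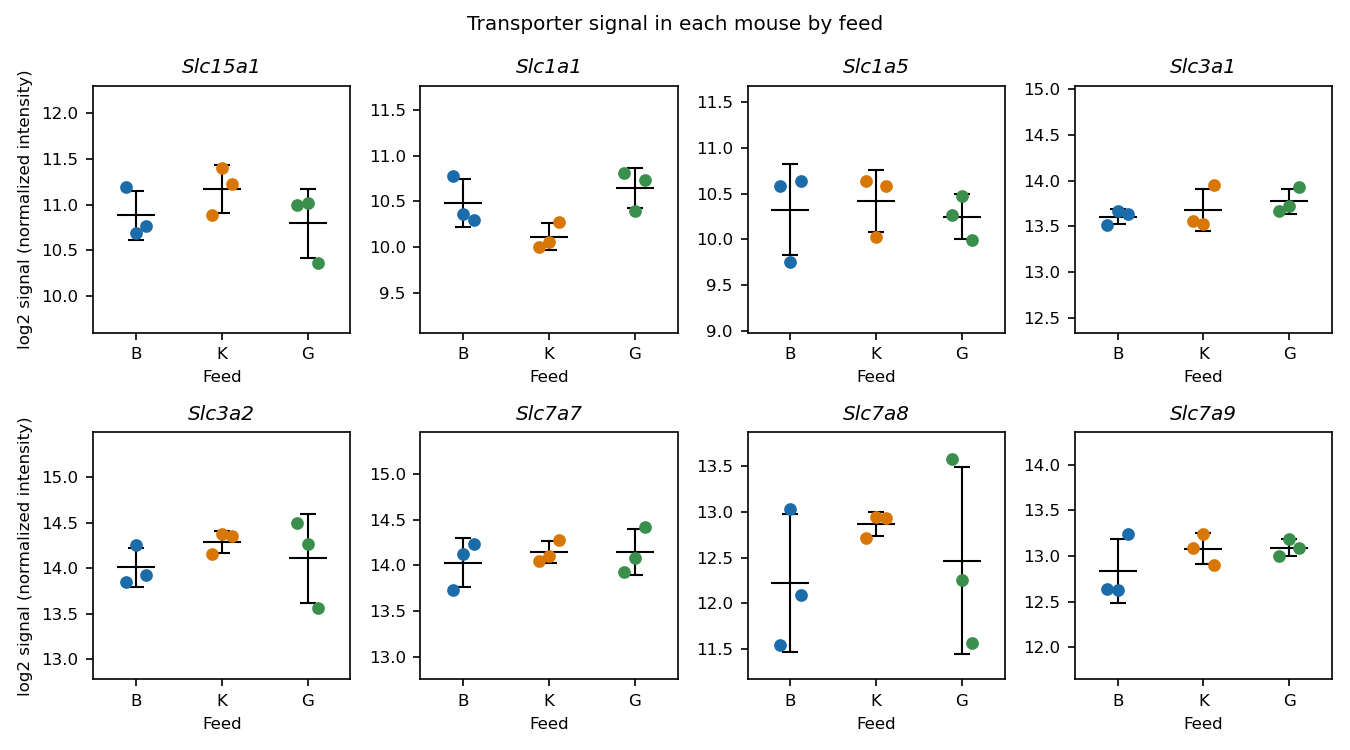
Log2 normalised signal of the 8 measured transporters (vertical axis, the same span in every panel) in each mouse on feeds B, K and G (horizontal axis). Points are mice, horizontal lines feed means and bars ± 1 SD (n = 3); the feeds overlap for every gene except Slc1a1, where the 3 mice on feed K lie below all others, and the points of Slc7a8 spread widest.

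No brush border or basolateral carrier passed the adjusted threshold between feeds. In an F test over the 3 feeds, fitted by limma to 9652 genes, 0 of the 8 transporters reached an adjusted p of 0.05 (their adjusted p lay between 0.903 and 0.973), and neither did any other gene (0% of genes tested). At an unadjusted p under 0.05 the F test also picked 0 of the 8, against 5.37% of all genes. Each gene was tested on its own as well, by an exact permutation test over the 280 ways of dealing the mice into 3 groups of 3. Its p is the share of these with an F ratio at least as large as the one seen, and cannot fall below 0.00357. Slc1a1 came nearest (permutation p = 0.05) and the other 7 lay between 0.354 and 0.80.

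The peptide carrier Slc15a1 stood at 11.19, 10.69 and 10.76 in feed B mice 7, 8 and 10. On feed K it was at 10.88, 11.40 and 11.23 in mice 1, 3 and 4, and on feed G at 11.00, 11.02 and 10.36 in mice 4, 8 and 11. The highest mouse was on feed K and the lowest on feed G, and the feeds overlapped. Feed K exceeded feed B by 0.29 ± 0.26 (log2 difference ± SE, limma, 3 mice per feed, adjusted p = 0.887), with a 95% interval from a 0.809-fold to a 1.86-fold level.

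Slc1a1, the carrier of glutamate and aspartate, was the transporter whose feeds were separated. Its log2 signal was 10.78, 10.36 and 10.30 on feed B, 10.00, 10.06 and 10.28 on feed K, and 10.81, 10.40 and 10.74 on feed G, in the same order of mice. All 3 feed K mice lay below every other mouse, the gap to the nearest feed B mouse being narrow. Feed G exceeded feed K by 0.54 ± 0.21 (95% interval 0.055 to 1.02, that is 1.04-fold to 2.03-fold, limma adjusted p = 0.96). Slc1a1 was thus 1 of 8 transporters with an unadjusted p under 0.05 in feed G minus feed K, where 4.54% of all genes had one, 2.14% higher on feed G and 2.39% lower. It was also the only transporter whose groups did not overlap there. Over all genes, feed G lay wholly above feed K in 6.35% and wholly below it in 7.35%. Feed K was below feed B by a log2 difference of -0.37 ± 0.21 (adjusted p = 0.826), again without overlap. Over all genes, feed K lay wholly below feed B in 3.71% and wholly above it in 6.28%. In feed G minus feed B all 8 transporters overlapped, where 6.35% of all genes lay wholly higher and 4.66% wholly lower. Without the mice with Fabp6 above 15, feed G minus feed K was 0.50 (limma adjusted p = 0.711). The unadjusted p was then no longer under 0.05, nor was it without feed K mouse 1 or 3, or without feed G mouse 4 or 11, where the difference lay between 0.45 and 0.51.

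The rBAT heavy chain Slc3a1 varied least. Its signal was 13.51, 13.67 and 13.64 on feed B, 13.56, 13.53 and 13.95 on feed K, and 13.67, 13.72 and 13.93 on feed G. The 9 mice spanned 1.36-fold, and no pair of feeds differed by more than 0.16 ± 0.19 (feed G minus feed B, limma adjusted p = 0.91). Under quantile normalisation the widest interval of its feed differences reached 1.51-fold, so a larger feed difference lay outside the interval of each pair. With each array scaled to its median instead, feed G minus feed B was 0.71 for Slc3a1, beside a median of 0.53 over all genes. The bound thus depended on the scaling.

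Slc7a9, the light chain that rBAT escorts, stood at 12.64, 12.63 and 13.24 on feed B, at 13.09, 13.24 and 12.90 on feed K and at 13.00, 13.18 and 13.09 on feed G. Feed B mice 7 and 8 were the lowest of all 9, while feed B mouse 10 was as high as any. Feed G minus feed B was 0.26 ± 0.22 (limma adjusted p = 0.897). The same feed B mice 7 and 8 had the smallest shares of probes detected, 36.7% and 33.7%, against 41.2% to 48.1% on the other 7 arrays.

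Over the 9 arrays the signal of Slc7a9 followed that share, with r = 0.88 (exact permutation p = 0.00323, adjusted p = 0.0259 over the 8 transporters) and rho = 0.78 (exact permutation p = 0.0172, adjusted p = 0.138). Without the 2 arrays farthest from the median share, those of feed B mice 7 and 8, r was 0.51. Within the 3 mice of each feed it was 0.96 on feed B, 0.90 on feed K and 0.89 on feed G. For the other 7 transporters r with the share lay between -0.036 and 0.29. With the share as a covariate, the feed G minus feed B difference of Slc7a9 was -0.28 in place of 0.26, so its sign was not settled.

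At the basolateral face, Slc7a7 was at 13.73, 14.12 and 14.24 on feed B, 14.05, 14.10 and 14.28 on feed K, and 13.93, 14.08 and 14.42 on feed G. The feeds overlapped almost fully, and feed G minus feed K was -0.0015 ± 0.21 (limma adjusted p = 0.999).

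The 4F2hc heavy chain Slc3a2 was at 13.85, 14.25 and 13.93 on feed B, 14.15, 14.37 and 14.35 on feed K, and 14.49, 14.27 and 13.56 on feed G. Both the highest and the lowest mouse ate feed G. Feed K minus feed B was 0.28 ± 0.26 (limma adjusted p = 0.901).

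Slc7a8, the LAT2 light chain, spread furthest. It stood at 11.55, 13.04 and 12.09 on feed B, at 12.72, 12.95 and 12.94 on feed K, and at 13.58, 12.26 and 11.57 on feed G. The feed K mice lay close together, whereas feeds B and G each held both high and low mice. Feed K exceeded feed B by 0.64 ± 0.53 (limma adjusted p = 0.881), with an interval from 0.669-fold to 3.65-fold. This difference turned to -0.16 without the mice with Fabp6 above 15, feed B then being 1 mouse assumed to vary like the other feeds.

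Slc1a5 was at 10.58, 9.75 and 10.64 on feed B, 10.64, 10.03 and 10.59 on feed K, and 10.27, 10.48 and 9.99 on feed G. Feed B mouse 8 was the lowest for Slc1a5, and also for Top2a, the topoisomerase of dividing cells (10.20 there, 11.03 to 11.74 in the other mice). Ascl2, the other measured crypt marker, was at 8.53 in that mouse, in the upper part of its range of 6.86 to 8.96. The feed differences of Slc1a5 were 0.098, -0.077 and -0.17 in K minus B, G minus B and G minus K, with SE 0.30 each. Leaving out feed B mouse 8 alone gave -0.19 in K minus B and -0.36 in G minus B, so the direction against feed B was not settled.

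Taking the 8 transporters as a list, feed K minus feed B had a median log2 difference of 0.18 with 7 of 8 above 0, beside 0.054 over all genes tested. Feed G minus feed B had a median of 0.14 with 6 of 8 above 0 (all genes 0.061), and feed G minus feed K one of -0.088 with 3 of 8 above 0 (all genes -0.0073). The K minus B and G minus B comparisons share the feed B mice, and there the medians over all genes lay above 0 too. The share of all genes above 0 was not counted. In K minus B and in G minus B, 0 of 8 had an unadjusted p under 0.05, against 6.31% and 5.74% of all genes. The bounds of the 95% intervals ran from -0.85 to 1.87 in K minus B, from -0.98 to 1.47 in G minus B and from -1.62 to 1.02 in G minus K.

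Without the mice with Fabp6 above 15, feed B was 1 mouse and feed G 2, so only the sizes of the differences are given here. Feed K minus feed B was then 0.48 for Slc15a1, 0.67 for Slc1a5 and 0.44 for Slc7a9, and 0.043 for Slc3a2. Feed G minus feed B turned to 0.33 for Slc15a1, 0.63 for Slc1a5, -0.12 for Slc7a7 and -0.11 for Slc7a8. Feed G minus feed K turned to 0.084 for Slc3a2 and 0.051 for Slc7a8 and was -0.047 for Slc1a5. The sign of Slc7a8 in K minus B turned as given above, and the remaining differences kept theirs.

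**Figure D2:**
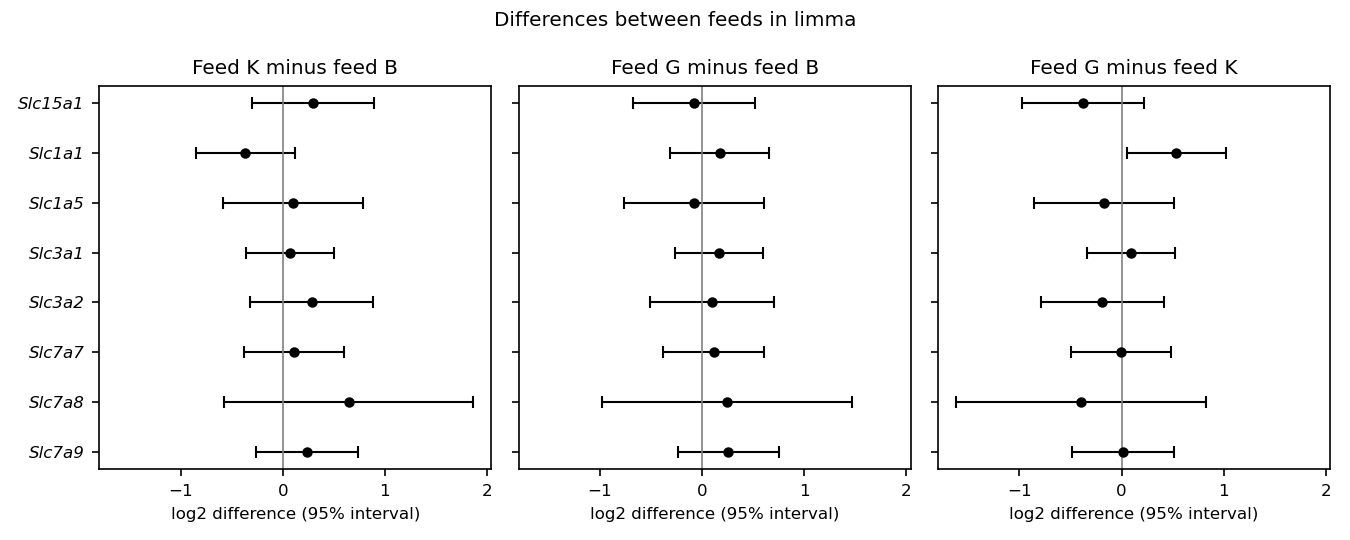
Log2 differences of the 8 transporters between feeds (horizontal axis), with limma estimates as points and 95% intervals as bars (3 mice per feed). Every interval crosses 0 except that of Slc1a1 in feed G minus feed K (0.055 to 1.02), and the intervals of Slc7a8 are the widest.

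The spread between individual mice was read next, since the methods of the study turn on how stable a gene is between animals. Over the 9 mice the SD of the log2 signal was 0.70 for Slc7a8, a 4.08-fold range from feed B mouse 7 to feed G mouse 4. The spot of feed G mouse 4 was the only one of the transporters with a nonzero flag (64, below the limit of 5000 for a failed spot). In the 6 mice with lower Fabp6 the SD of Slc7a8 was 0.43 and its range 2.48-fold, still the widest of the 8, while the SD of Slc3a2 was 0.12 in place of 0.30. The others had SDs of 0.33 (Slc1a5), 0.32 (Slc15a1), 0.30 (Slc1a1), 0.30 (Slc3a2), 0.23 (Slc7a9), 0.20 (Slc7a7) and 0.16 (Slc3a1). Their median, 0.30, lay beside a median of 0.293 over the 5887 genes detected on all arrays, with quartiles of 0.21 and 0.424.

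Slc7a8 and Slc3a1 marked the ends of this order. Of the 5887 genes, 93.9% had a smaller SD than Slc7a8 and 10.6% a smaller SD than Slc3a1. Among 804 genes of similar signal to Slc7a8 the median SD was 0.24. Taking out the feed means left the SD of Slc7a8 at 0.74, so its spread lay largely within feeds. This SD allows for the fitted feed means and can therefore exceed the 0.70 over all 9 mice. Slc1a5, Slc15a1, Slc1a1 and Slc3a2, neighbours in the order, had nearly the same SD and were not told apart. Within single feeds, the SD of Slc7a8 was 0.75 on feed B, 0.13 on feed K and 1.02 on feed G (n = 3 each). The mice with Fabp6 above 15 were on feeds B and G.

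**Figure D3:**
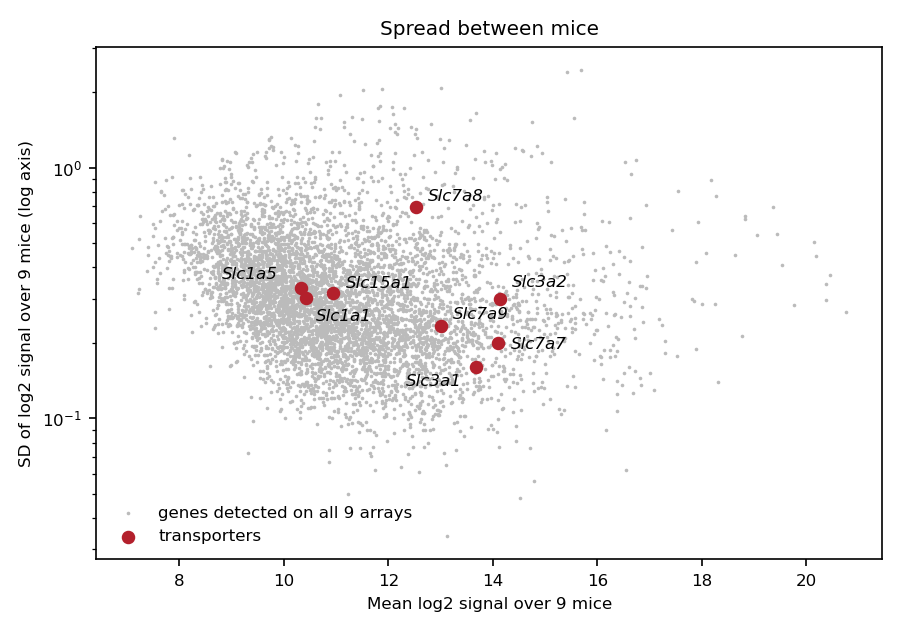
SD of the log2 signal over 9 mice (vertical log axis) against the mean log2 signal (horizontal axis) for the 5887 genes detected on all arrays (grey) and the 8 transporters (red). Slc7a8, with an SD of 0.70, lies near the top of genes of its signal, and Slc3a1 (0.16) in the lower part.

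The 8 transporters form 28 pairs, and each pair was correlated over the 9 mice with an exact permutation test over 362880 pairings. A single pair passed a Benjamini-Hochberg adjusted p of 0.05 over the 28, the heavy chain Slc3a2 and its light chain Slc7a8, with r = 0.91 (exact permutation p = 0.000424, adjusted p = 0.0119). By rank rho was 0.85 (exact permutation p = 0.00607, adjusted p = 0.17), and no pair passed on ranks. Without the 2 mice farthest from the median of Slc3a2, r was 0.82, and with feed means removed it was 0.89. It was positive in the 3 mice of every feed (0.98 on feed B, 1.00 on feed K and 0.89 on feed G).

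The pair was low in the mice with a strong ileal marker. The mice with Fabp6 above 15 were the 3 lowest of 9 for both genes, at 11.55, 12.09 and 11.57 for Slc7a8 and at 13.85, 13.93 and 13.56 for Slc3a2 (feed B mice 7 and 10, feed G mouse 11). The other 6 mice lay at 12.26 to 13.58 and at 14.15 to 14.49, with no overlap. No such order was seen in the other 6 transporters: feed G mouse 11, which had the highest Fabp6, was the lowest for Slc15a1 and the highest for Slc7a7. How many of all genes set the same 3 mice apart was not counted, so whether this is particular to the pair was not tested. Among the other 6 mice, Fabp6 was 4.67 in feed B mouse 8 and 12.19 in feed K mouse 3, where Slc3a2 was at 14.25 and 14.37. In the 6 mice with lower Fabp6 the correlation of Slc3a2 with Slc7a8 was 0.69 (exact permutation p = 0.114, adjusted p = 0.922 over the 28 pairs). By rank rho was 0.54 (permutation p = 0.297), and the pair did not pass. With 6 mice the smallest possible permutation p is 0.00139 before adjustment, so few orders could pass. The call was also lost when feed B mouse 8 or 10, feed K mouse 3 or 4, or feed G mouse 4 or 11 was left out alone. Of these, feed B mouse 10 and feed G mouse 11 had Fabp6 above 15 and the others lower Fabp6. In each case r was 0.89 to 0.91. Whether the position of the sampled piece along the gut accounts for the shared movement was not tested.

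**Figure D4:**
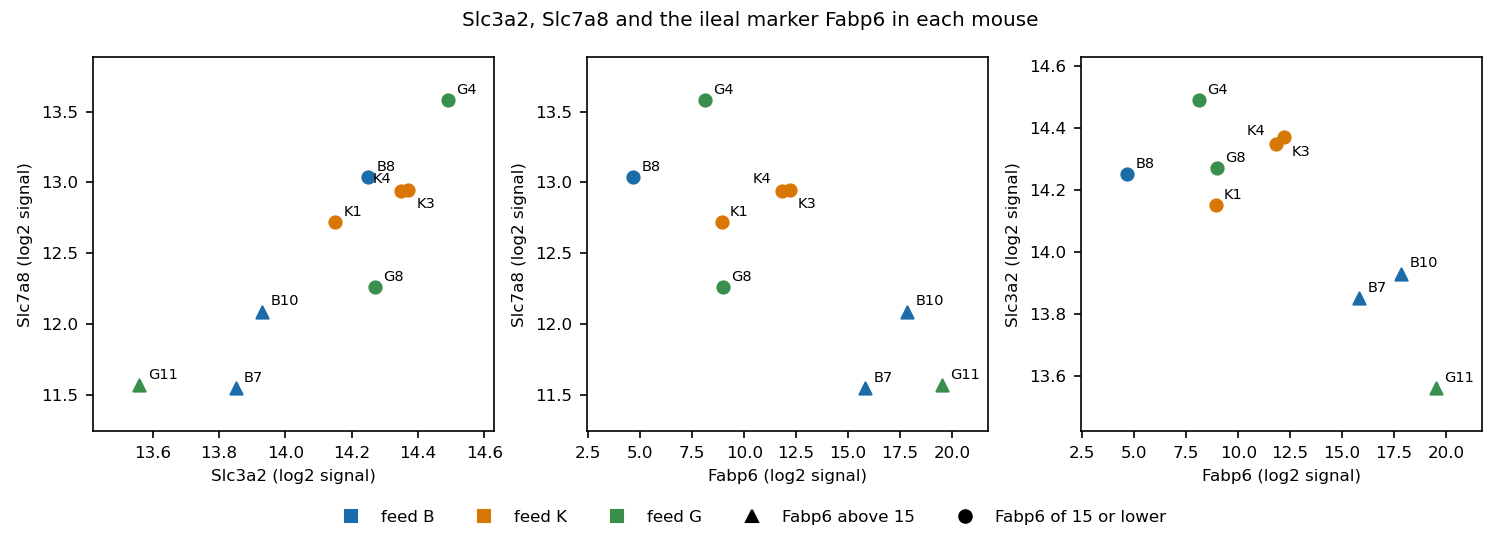
Log2 signals per mouse of Slc7a8 against Slc3a2 (left) and of Slc7a8 and Slc3a2 against the ileal marker Fabp6 (middle and right), with colours for feeds and letters with numbers for mice. The 3 mice with Fabp6 above 15 (triangles, B7, B10 and G11) are the lowest for both genes, and the 6 others (circles) lie at 12.26 or more for Slc7a8 and 14.15 or more for Slc3a2.

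The promoter windows of these genes are shown because their signals rose and fell together over the mice. Each holds 300 bases, most of them before the gene start, from RefSeq on GRCm38.p6, and capitals mark the GC box GGGCGG or its reverse complement. The Slc3a2 window is chr19:8713848-8714147 on the minus strand, at a start inside the gene's RefSeq span. The Slc7a8 window is chr14:54781837-54782136, also on the minus strand.
Slc3a2: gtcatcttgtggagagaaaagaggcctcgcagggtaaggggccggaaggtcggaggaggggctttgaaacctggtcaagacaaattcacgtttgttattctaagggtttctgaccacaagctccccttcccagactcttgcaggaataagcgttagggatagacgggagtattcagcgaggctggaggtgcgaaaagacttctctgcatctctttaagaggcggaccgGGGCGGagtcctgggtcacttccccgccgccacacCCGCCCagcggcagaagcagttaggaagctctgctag
Slc7a8: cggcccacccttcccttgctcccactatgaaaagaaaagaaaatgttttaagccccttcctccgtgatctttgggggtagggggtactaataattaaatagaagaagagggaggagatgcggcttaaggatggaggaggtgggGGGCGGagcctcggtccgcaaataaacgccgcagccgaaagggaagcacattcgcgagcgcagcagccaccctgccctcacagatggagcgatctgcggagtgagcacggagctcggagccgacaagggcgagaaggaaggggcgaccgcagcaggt
The GC box stood at 2 positions in the Slc3a2 window and 1 in that of Slc7a8. It is common, being present in 35.7% of 32851 windows of the same length. On both strands, neither window held the E-box CACGTG (7.15% of all windows), AGATAA, the GATA motif (11.2%), TTTATNG, a caudal-type motif (10.9%), TTATGTAA, the D-box (0.938%), or TGATGNAA, the amino acid response motif of C/EBP and ATF factors (3.97%). None of the motifs searched overlapped another in these windows, and a match or its lack says only which letters the window holds.

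The other heavy chain partnerships gave lower values. Slc3a2 and Slc7a7 had r = -0.26, which was -0.77 without feed B mouse 7 and 0.27 without feed G mouse 11, and the brush border pair Slc3a1 and Slc7a9 had r = 0.05 (exact permutation p = 0.913). Slc3a1 instead ran with Slc7a7, a light chain it is not known to escort, at r = 0.76 (exact permutation p = 0.0183, adjusted p = 0.257), and this fell to 0.45 without the 2 mice farthest from the median of Slc3a1. Slc15a1 and Slc3a2 had r = 0.63 (exact permutation p = 0.0679, adjusted p = 0.634). Of the 28 pairs 11 were positive, and the median r was -0.085.

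Several of these values moved with the scaling. With each array scaled to its median instead of quantile-normalised, r was 0.97 for Slc3a1 and Slc7a7 and 0.89 for Slc3a1 and Slc7a9, and with the authors' normalised values it was 0.89 and 0.81, all past the adjusted threshold. Slc15a1 and Slc3a2 also passed under both settings (r = 0.84, exact permutation adjusted p = 0.0234, and r = 0.82, adjusted p = 0.0393). Slc3a2 and Slc7a7 turned positive, at 0.58 and 0.44, and did not pass. The pair Slc3a2 and Slc7a8 was at 0.85 and 0.78 under the same settings, the latter with an exact permutation adjusted p of 0.0718. Under these settings the median of all genes in feed K minus feed B was 0.41 and 0.21, in place of 0.054. In feed G minus feed B it was 0.53 and 0.30, in place of 0.061. The part of this shift of all genes in the correlations was not tested.

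**Figure D5:**
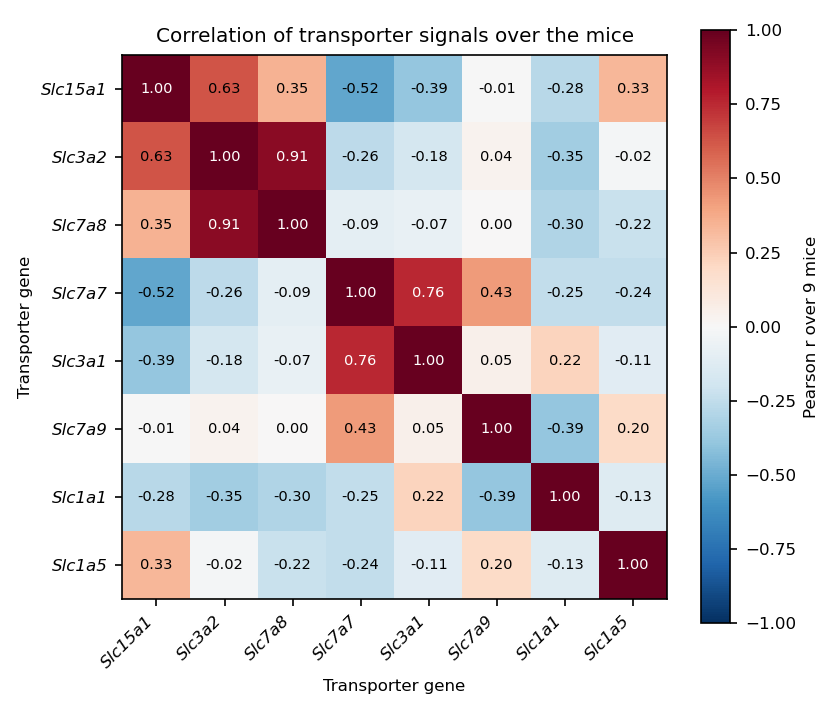
Pearson r between the log2 signals of each pair of transporters over 9 mice (rows and columns are genes, colour from -1 in blue to 1 in red, the number in each cell is r). Slc3a2 with Slc7a8 (0.91) and Slc3a1 with Slc7a7 (0.76) are highest, and Slc3a1 with its known partner Slc7a9 is near 0.

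Genes whose pattern over the 9 mice was most like each transporter were taken by the 3 highest r among 5879 other genes detected on every array. These are descriptions, with no test, and points share mice and arrays. Slc3a2 was followed by Vil2 (0.95), the microvillus protein ezrin, by Abca1 (0.94), a cholesterol exporter, and by Ace (0.93), a brush border peptidase. Slc7a8 was followed by 2410051C13Rik (0.96), H2-Bl (0.96) and 1700007D05Rik (0.94). Slc7a8 itself held place 11 of 5886 genes by r with Slc3a2, and Slc3a2 place 9 for Slc7a8.

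For Slc7a7 the nearest were Anxa2 (0.98), an annexin, Slc17a5 (0.93), the lysosomal sialic acid exporter, and Mafk (0.93). For Slc7a9 they were 0610037P05Rik (0.95), Cul4a (0.95) and Sav1 (0.95), and 20 genes reached r of 0.9 with it. Slc3a1 was nearest to Rnh1 (0.94), Pte2b (0.93) and Tmc6 (0.93). Slc15a1 had Oas1c (0.92), Tm4sf13 (0.91) and Agrn (0.90), with 2 genes at 0.9 or above. Slc1a1 had Arl8 (0.92), Zfp526 (0.92) and Rpl27a (0.92), a ribosomal protein, and Slc1a5 had Ddx39 (0.96), an RNA helicase, Ifitm3 (0.93) and 2610005B21Rik (0.91).

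The wider set of amino acid and peptide carriers was mostly below detection. Of 41 listed genes 30 had a probe, and 10 were detected on 3 or more arrays. Slc7a5 and Slc6a14 were each detected on 1 array, and Slc7a11 and Slc6a18 on 0, examples chosen after their values were seen. None of the 10 passed the adjusted threshold in any pair of feeds, and 1, Slc36a1, had an unadjusted p under 0.05, in feed G minus feed K. The lists' shares stand beside the same background of 4.54% to 6.31% of all genes.

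Slc36a1, a proton-coupled carrier of small neutral amino acids, had log2 signals of 9.20, 10.22 and 10.15 on feed B, 10.36, 11.03 and 11.53 on feed K, and 9.75, 9.73 and 7.49 on feed G. All feed K mice lay above all others, and the lowest value was that of feed G mouse 11, which had the highest Fabp6. Feed G minus feed K was -1.98 ± 0.63 (limma adjusted p = 0.96).

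Among 12 listed partners and driving pumps, which comprise the sodium pump, brush border peptidases and scaffolds, 10 were tested. In feed K minus feed B, 3 had a higher signal at an unadjusted p under 0.05, beside 4.34% of all genes, and 0 a lower one, beside 1.97%. Atp1b1, the sodium pump's beta subunit, was at 15.75, 16.07 and 16.06 on feed B, 16.58, 16.57 and 16.65 on feed K and 16.83, 16.82 and 16.33 on feed G. Its feed B mice lay below all others.

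Atp1b1 exceeded feed B by 0.64 ± 0.20 on feed K (limma adjusted p = 0.772) and by 0.70 ± 0.20 on feed G (limma adjusted p = 0.698). Enpep, aminopeptidase A, differed by 0.67 ± 0.28 in feed K minus feed B (limma adjusted p = 0.786), its groups overlapping. Pdzk1, a scaffold of apical carriers, differed by -0.57 ± 0.25 in feed G minus feed B (limma adjusted p = 0.858), with its lowest value, 11.93, in feed G mouse 11. In that comparison 3.84% of all genes were higher and 1.9% lower at an unadjusted p under 0.05. The clock output sums of feed B lay below those of feeds K and G as given above, with Arntl and Nfil3 going the other way. The part of the clock output genes in these differences was not tested.

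Of 11 genes of the amino acid response, which cells switch on when amino acids run short, 9 were tested and 0 had an unadjusted p under 0.05 in any pair of feeds. Their median log2 differences were 0.071 in feed K minus feed B, 0.054 in feed G minus feed B and -0.24 in feed G minus feed K.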

How the data were processed

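RNA from 9 jejunal samples was hybridised to Applied Biosystems single-colour chemiluminescence arrays with 60-mer probes. Per the file headers, the deposited columns hold a linear signal intensity, its signal-to-noise ratio, its error and a flag for each of 33012 probes. The deposited series table repeats the authors' normalised signal score of the same arrays (297108 of 297108 values identical) and was used as an alternative; RMA is named in the submitters' processing notes without a role. Where the signal-to-noise ratio was below 1, the deposited signal equalled its error in all 119010 spots.

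Failed spots (flag over 5000) were removed before quantile normalisation and log2 transformation, and probes of 1 symbol were averaged. Genes detected (signal-to-noise of at least 3) on at least 3 arrays were tested (9652) with limma 3.58.1 in R 4.3.3, with all 9 arrays in 1 fit and Benjamini-Hochberg adjustment over all of them. The fit was tested on simulated data. Groups came from the labels, and arrays limit precision by their number. The labels call the mice separate samples of a feed; cages were not given in the sources used here, so p-values measure the spread between these mice. All arrays share 1 folder name, and no batch could be examined. Correlations used exact permutation tests.

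Named were all measured transporters, the 3 genes most like each and, from 3 lists, genes with an unadjusted p under 0.05. From these lists, 1 gene is counted but not reported here by name. The transporters and lists were chosen with earlier results of these data known. Alternatives were another scaling, the series table, the brightest probe, failed or dim spots, filters, robust limma, array weights, detection share and each mouse left out; leaving out the 3 mice with Fabp6 above 15 was added after seeing the data. Sequences were read from RefSeq on GRCm38.p6 for 2 genes. The labels and methods name different RNA kits, and the genome build of the probes was not given in the sources used here.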

Additional observations from a re-analysis of the deposited data

How the results depend on the processing

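The count of transporters past an adjusted p of 0.05 stayed at 0 in the F test and in all 3 pairs of feeds under every alternative run in limma. With each array scaled to its median, the median log2 difference of all genes moved from 0.054 to 0.41 in K minus B and from 0.061 to 0.53 in G minus B. Relative to that shift Slc1a1, at 0.055 in K minus B, still lay below. Under that scaling Slc1a1 and Slc3a1 in G minus B had an unadjusted limma p under 0.05, beside 1798 of 9652 genes. Slc3a2 had one in K minus B, beside 1230 genes. Uncalled feed differences changed sign in places, Slc1a5 in G minus B under 7 of 20 alternatives and Slc7a7 in G minus K under 6. The count of correlated pairs was 1 of 28 as reported, 6 with median scaling, 4 with the series table, 2 after removing spots with signal under their noise and 0 without the mice with Fabp6 above 15; the cause was not tested. With 1 mouse left out it ranged from 0 to 1. It was 0 without feed B mouse 8 or 10, feed K mouse 3 or 4, or feed G mouse 4 or 11, while r of Slc3a2 and Slc7a8 stayed between 0.89 and 0.95. The transporters' median SD was 0.463 with median scaling and 0.235 without the mice with Fabp6 above 15, against 0.30. The exact permutation F test was run per transporter and gave no adjusted count. No paired analysis was possible, because each sample came from 1 mouse on 1 feed and the labels give no pairs. Mouse numbers shared between feeds, 8 in feeds B and G and 4 in feeds K and G, do not mark pairs. Depth is a matter of signal over noise, and Slc7a8 in feed B mouse 8 had the lowest ratio, 4.4.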
